A study of Drosophila melanogaster with 4 samples.

Results

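The glial marker genes are 8 genes of Drosophila melanogaster that label glia, the support cells of the nervous system, or serve tasks that glia carry out. They were taken by name as the loci of the deposited tables whose only gene name was Eaat1, Gs2, nrv2, repo, CG11910, moody, loco or wrapper, and CG11910 is the older name of alrm in the RefSeq gene table. All 8 were found, each at 1 of 13866 loci, and none was at 0 in any library. RNA was measured in pharate adults, fully formed flies that have not yet left the pupal case, of 4 lines with 1 library per line. The lines are labelled LU.10580hom, LU.10580/CAG, LU.10580.tg2 and LU.10580.tg1, shortened to hom, CAG, tg2 and tg1. All 4 share the LU.10580 prefix; neither the labels nor the tables say which genotypes, alleles or transgenes the names denote, or the sex and exact age of the animals, and the CAG column is headed het in its table. The animals were grown at 24 °C, no dissection is named, and the RNA was depleted of ribosomal RNA before sequencing.

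Glia of the fly wrap neurons, seal the nervous system from the blood and clear transmitter from synapses. Astrocyte-like glia reach into the synaptic regions, where Eaat1 takes up glutamate and glutamine synthetase turns it into glutamine. Subperineurial glia form the blood-brain barrier, in which the receptor moody and the G protein regulator loco act together on the septate junctions. Cortex glia enclose the cell bodies of neurons, and repo encodes the homeodomain transcription factor found in nearly all glia outside the midline.

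The values are FPKM, fragments scaled to transcript length and to the number mapped, as the authors deposited them. Libraries were compared by subtraction of log2(FPKM + 1) values, a scale that understates the change of genes with low values, and folds refer to FPKM + 1. A difference of at least 1, which is 2-fold, was called. With 1 library per line the spread between replicates is unknown, no p-value was computed, and no order of neighbouring values can be judged against error. Read numbers per library are not stated; from the steps among the lowest FPKM values, the most frequent ratio put depth relative to CAG at 0.766 for hom, 1.12 for tg1 and 1.15 for tg2. Such estimates are rough, since 45 of 111 low loci for hom, 32 of 144 for tg1 and 51 of 142 for tg2 lay within 3% of them. The median over all loci was between 8.05 and 8.48 FPKM, and the median difference of all tested loci lay between −0.04 and 0.02 in the 6 pairs of lines.

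The glutamate handling genes Eaat1 and Gs2, the pump subunit gene nrv2 and the astrocyte marker alrm were abundant, with means over the 4 libraries of 144, 216, 208 and 133 FPKM. These and repo had their lowest value in hom. Moody, loco and wrapper were at 8.70, 10.5 and 3.44 FPKM on average and lay on the other side, with hom above tg1 and tg2. The only 2-fold difference among the 8 genes was that of Eaat1 between tg2 and hom. In whole animals, fewer cells of a type and less RNA per cell cannot be told apart.

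**Figure D1:**
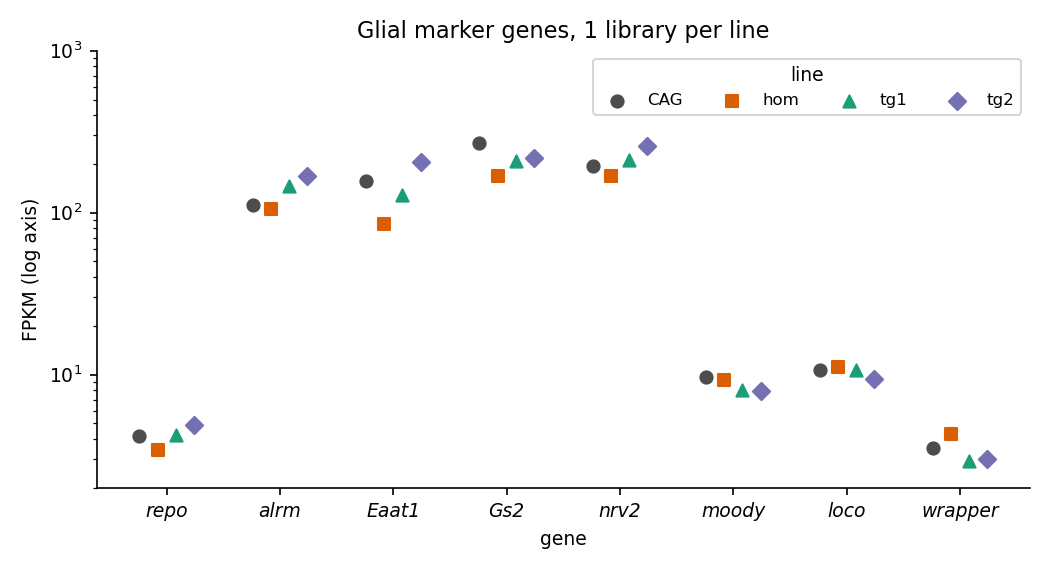
FPKM on a log axis for the 8 glial marker genes in the CAG, hom, tg1 and tg2 libraries, 1 point per library. The abundant genes alrm, Eaat1, Gs2 and nrv2 sit between 85.2 and 269.7 FPKM and the other 4 between 2.95 and 11.1 FPKM.

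The pan-glial regulator repo, on 3R at 14061916 to 14067906 of the dm3 build, stood at 3.45 FPKM in hom, 4.16 in CAG, 4.91 in tg2 and 4.23 in tg1. CAG and tg1 were nearly level, hom was lowest and tg2 highest. The difference between tg2 and hom was 0.41, and that between hom and CAG was −0.21. The file places CG7156 in the same span, and this gene overlaps repo on the opposite strand in the Release 6 annotation, so fragments may be shared where strand was not used in counting. CG7156 had 5.51 FPKM in hom, 4.54 in CAG, 5.24 in tg2 and 5.21 in tg1, and did not have its lowest value in hom.

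The leucine-rich repeat gene alrm, a marker of astrocyte-like glia, had 105 FPKM in hom, 111 in CAG, 169.5 in tg2 and 147 in tg1. CAG and hom were the lower pair and tg1 and tg2 the higher pair. The tg2 library was 1.61-fold above hom and 1.52-fold above CAG, and tg1 was 1.40-fold above hom. The span given for alrm on 3R, 21165974 to 21299141, is shared by 5 other loci of the files, and alrm lies within a region that also belongs to Fur1 on the same strand in the annotation. The joined locus of Fur1 and tobi had 20.7 FPKM in hom, 25.5 in CAG, 20.0 in tg2 and 21.4 in tg1. It was thus highest in CAG, with hom, tg2 and tg1 close together, an order other than that of alrm. The gene rha, also in the span, had 10.4 FPKM in hom, 11.8 in CAG, 15.0 in tg2 and 13.1 in tg1, the same order of lines as alrm.

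The glutamate transporter gene Eaat1, on 2L at 9333568 to 9341925, had 85.2 FPKM in hom, 157 in CAG, 204 in tg2 and 129 in tg1. Its value in hom was well below the other 3, and tg2 was highest. Between tg2 and hom the difference was 1.25, a 2.38-fold higher value in tg2, and 2.38% of all tested loci differed by at least as much in that direction. The difference of hom from CAG was −0.87, a 1.83-fold lower value in hom and short of the call. The difference of tg1 from hom was 0.59, and that of tg1 from tg2 was −0.66. Over the 4 libraries Eaat1 spanned 1.25 on the log2 scale, and 7.49% of tested loci spanned more.

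The gene Gs2, which encodes the glutamine synthetase that completes the uptake of glutamate in glia, lies on X at 11316888 to 11324228. It had 169.5 FPKM in hom, 269.7 in CAG, 217 in tg2 and 208 in tg1. Here CAG was highest, tg1 and tg2 were nearly level, and hom was again lowest. The difference of hom from CAG was −0.67, a 1.59-fold lower value, while tg2 was only 1.28-fold above hom. Relative to Eaat1 its FPKM was 1.99 times as high in hom, 1.72 in CAG, 1.61 in tg1 and 1.06 in tg2.

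The gene nrv2, on 2L at 6789762 to 6798864, encodes a beta subunit of the sodium-potassium pump and is a common label of glia, though the subunit also serves septate junctions in epithelia. It had 169 FPKM in hom, 194 in CAG, 258 in tg2 and 213 in tg1. The order was the same as for repo and alrm, with tg2 1.52-fold above hom and the other differences smaller.

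**Figure D2:**
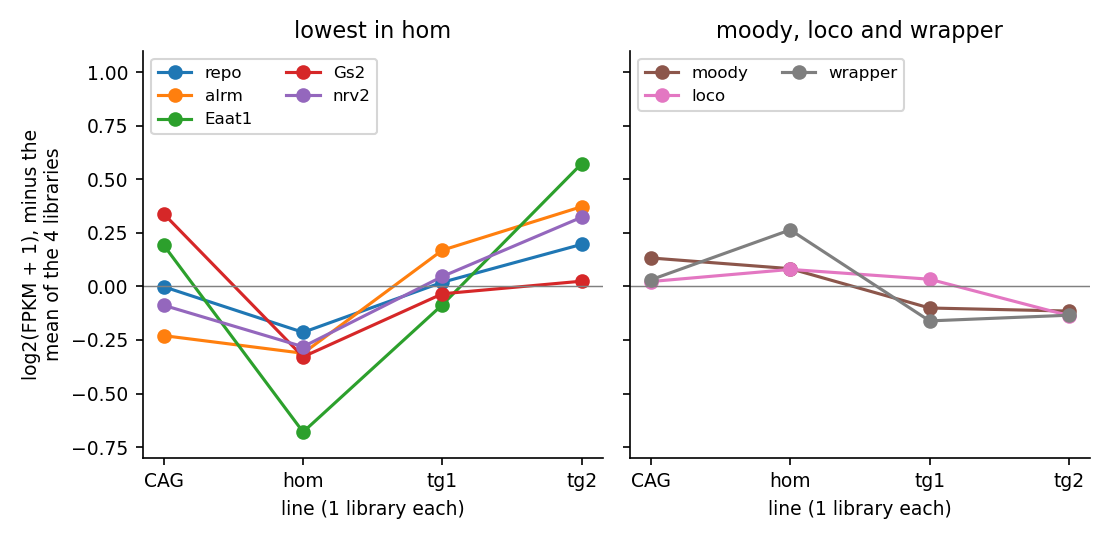
Log2(FPKM + 1) of each gene minus its mean over the 4 libraries, with lines joining the points of a gene only to guide the eye. On the left the 5 genes with their lowest value in hom, among which Eaat1 spans 1.25; on the right moody, loco and wrapper, which span 0.25, 0.22 and 0.42.

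The barrier genes differed least. The gene moody, for the receptor of the blood-brain barrier, lies on X at 1938325 to 1944143 and had 9.25 FPKM in hom, 9.61 in CAG, 7.93 in tg2 and 8.02 in tg1. CAG and hom were slightly above tg1 and tg2, by at most 1.19-fold. Its G protein partner loco, on 3R at 18444205 to 18465082, had 11.1 FPKM in hom, 10.6 in CAG, 9.41 in tg2 and 10.7 in tg1. Only tg2 stood a little off, 1.16-fold below hom. Of all tested loci, 77.9% spanned more than moody and 83.5% more than loco over the 4 libraries. In the annotation moody overlaps CG4313 and loco overlaps a pair of noncoding RNA genes, all on the opposite strand, and mRpL45 shares the span of loco in the files.

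The immunoglobulin family gene wrapper, known from midline and cortex glia, lies on 2R at 18267017 to 18270191. It had 4.30 FPKM in hom, 3.51 in CAG, 3.02 in tg2 and 2.95 in tg1. The hom library was highest, 1.34-fold above tg1 and 1.32-fold above tg2, which were nearly level. This was the reverse of the order of Eaat1, alrm, nrv2 and repo with regard to hom. With means of 3.44 and 4.19 FPKM, wrapper and repo rest on the fewest fragments per length of the 8 genes.

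Counted over the 6 pairs of lines, calls among the 8 genes were few, as they were among all tested loci. All 8 passed the filter of a mean of at least 1 FPKM, which left 11689 loci. None of the 8 was called for hom against CAG, where 5.3% of tested loci were called, for tg1 against CAG (3.55%), for tg2 against CAG (4.59%), for tg1 against hom (3.54%) or for tg1 against tg2 (3.31%). For tg2 against hom 1 of the 8 was called, Eaat1, higher in tg2; 6.48% of tested loci were called in either direction and 3.78% as higher. The median difference of the 8 genes was −0.14 for hom against CAG, −0.09 for tg1 against CAG, 0.02 for tg2 against CAG, 0.26 for tg1 against hom, 0.38 for tg2 against hom and −0.12 for tg1 against tg2. The same medians over all tested loci were −0.01, −0.03, −0.01, −0.01, 0.02 and −0.04. These pairs share libraries, so they are not independent of each other.

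At a smaller step of 0.5, Eaat1 and Gs2 stood lower in hom than in CAG, 2 of 8 beside 9.42% of all tested loci. Eaat1, alrm and nrv2 were higher by that step in tg2 than in hom, beside 14.8% of tested loci. Eaat1 was the only one of the 8 higher by that step in tg1 than in hom (7.66% of tested loci) and the only one lower in tg1 than in tg2 (9.0%), and alrm was the only one higher in tg2 than in CAG (9.76%). None differed by 0.5 between tg1 and CAG, where 12.9% of tested loci did. The range over the 4 libraries stayed under 0.5 in 4 of the 8 genes, repo, moody, loco and wrapper, and in 60.2% of all tested loci.

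**Figure D3:**
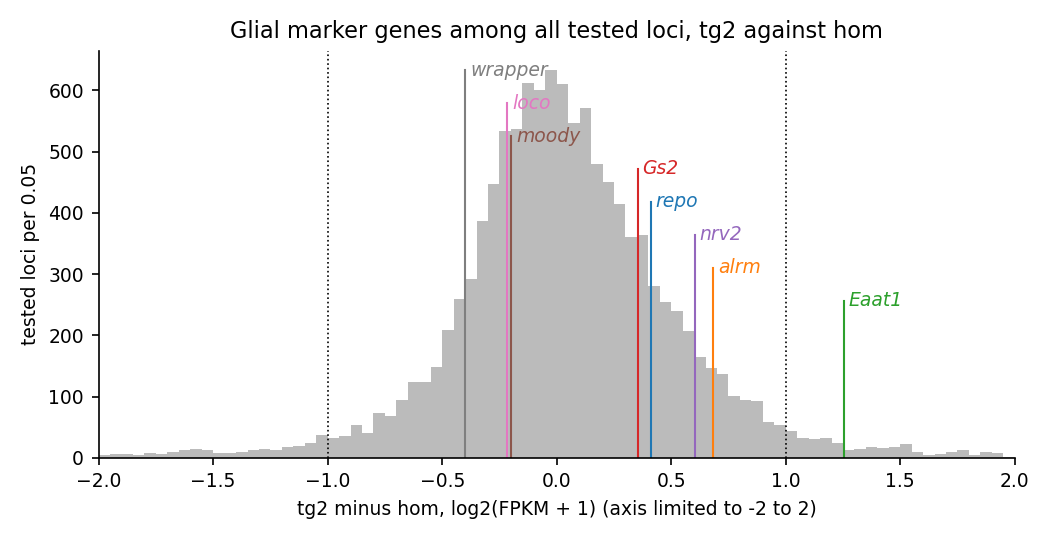
Histogram of the difference of tg2 from hom over all tested loci on the log2(FPKM + 1) scale, with a vertical line of arbitrary height at the value of each glial marker gene and dotted lines at the 2-fold call. Eaat1 at 1.25 is past the call, Gs2, repo, nrv2 and alrm lie between 0.35 and 0.68, and moody, loco and wrapper lie below 0.

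By order of lines, hom was lowest at 5 of the 8 genes and at 29.4% of all tested loci. The tg2 library was highest at 4 of the 8, Eaat1, alrm, nrv2 and repo, and at 31.6% of tested loci. The full order tg2, tg1, CAG, hom occurred at alrm, nrv2 and repo, and at 7.91% of tested loci. Hom was highest at loco and wrapper (27.8% of tested loci), and tg2 was lowest at moody and loco (28.0%).

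Other genes named for glia gave a mixed picture. Of the 14 listed, 9 were found under their own name or a synonym, 4 were found only joined with other gene names (gcm, Mdr65, drpr and pnt) and zydeco was not matched. Of the 9, gcm2, a regulator of glial fate, stayed below the filter at 0.0343 to 0.199 FPKM. Among the 8 tested, hom was lowest at 5 and below CAG at 8, beside 29.4% and 51.9% of all tested loci, with a median difference of −0.17 between hom and CAG and 0.26 between tg2 and hom. Gat (CG1732 in the files), the GABA transporter of astrocyte-like glia, was the most abundant, with 158 FPKM in hom, 184 in CAG, 315 in tg2 and 269 in tg1. It had the same order of lines as alrm, and tg2 was 1.985-fold above hom, just short of the call. Gat lies on chromosome 4. The other chromosome 4 loci named in this text, Crk, CaMKII and bt, were also higher in tg1 and tg2 than in hom and CAG. Of these, CaMKII is named only because its profile lay near that of alrm, so its order was fixed by that choice. The gene bt was listed at 0 in hom and CAG, which can be a failed estimate. The share of tested loci with tg1 and tg2 above hom and CAG was not computed. A shift shared by loci of chromosome 4 was not tested. The widest range was that of e (ebony), which joins beta-alanine to amines in glia and in the cuticle, with 25.0 FPKM in hom, 62.8 in CAG, 43.3 in tg2 and 25.8 in tg1. It was called lower in hom and in tg1 than in CAG, by 2.45-fold and 2.38-fold, the only calls in this list. Of all tested loci, 5.3% and 3.55% were called in these pairs, in either direction.

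The relatives of the transmitter genes and of nrv2 did not all share their order. Eaat2, a relative of Eaat1 that carries aspartate and taurine, had 22.0 FPKM in hom, 25.0 in CAG, 24.8 in tg2 and 19.7 in tg1, a narrow range with tg1 lowest. Gs1, the mitochondrial glutamine synthetase, had 243 FPKM in hom, 171 in CAG, 151 in tg2 and 133 in tg1. Hom was thus highest for Gs1 and lowest for Gs2, and the ratio of Gs2 to Gs1 was 0.699 in hom and 1.44 in tg2, 1.57 in tg1 and 1.58 in CAG. Of the other pump beta subunits, nrv3, which is neuronal, had 205 FPKM in hom, 299 in CAG, 442 in tg2 and 366 in tg1, 2.15-fold higher in tg2 than in hom. The third subunit, nrv1, lay between 105.6 and 129 FPKM with tg2 lowest. Atpalpha, the catalytic subunit with which they pair, had 292 FPKM in hom, 397 in CAG, 374 in tg2 and 377 in tg1.

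**Figure D4:**
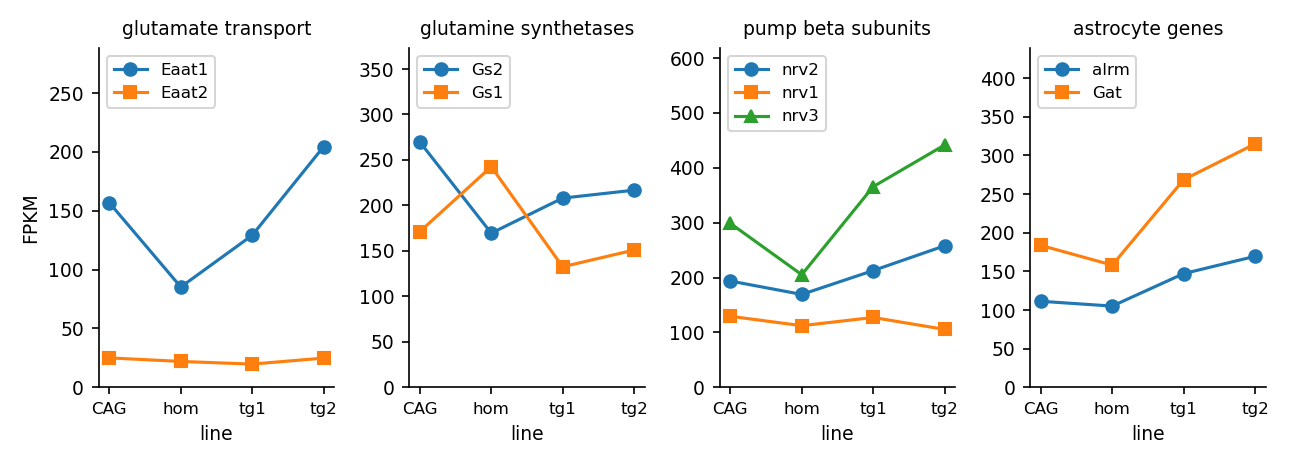
FPKM by line, on axes that start at 0, for Eaat1 with Eaat2, Gs2 with Gs1, nrv2 with nrv1 and nrv3, and alrm with Gat; lines join points only to guide the eye. Gs1 is highest in hom at 243 FPKM, where Gs2 is lowest at 169.5 FPKM.

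The list of transmitter handling genes holds Gs1 and shares Gat, Eaat2 and gb with the other genes named for glia. It also shares Gad1 and VGlut with the neuron markers, so the counts of these lists overlap. Hom was lowest at 5 of the 8 transmitter handling genes, beside 29.4% of all tested loci. It was highest at 2, Gs1 and Gdh, the glutamate dehydrogenase, beside 27.8%. VGlut, the vesicle transporter of glutamatergic neurons, had the widest range, with 14.5 FPKM in hom, 22.1 in CAG, 32.8 in tg2 and 22.2 in tg1. It was the only call of this list in any pair, 2.19-fold higher in tg2 than in hom, beside 3.78% of all tested loci.

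Septate junction genes, whose proteins seal the blood-brain barrier and also epithelia, differed by less than 2-fold in every pair, with 0 calls. Among all tested loci, 3.31% to 6.48% were called by pair. Of 15 listed 14 were tested, since Cont was found only joined with other names. Hom was highest at 8 and lowest at 1, Atpalpha, beside 27.8% and 29.4% of all tested loci. The tg2 library was lowest at 11, beside 28.0%. The median difference of tg2 from hom was −0.23, and 13 of the 14 lay below 0, as did 47.9% of all tested loci. Atpalpha was the exception, at 0.36. The list holds nrv1 but not the glial marker gene nrv2, which was at 0.60 in this pair. Both extremes were the reverse of those of Eaat1, with hom highest and tg2 lowest, at 6 of the 14 and at 13.6% of all tested loci. Atpalpha was the most abundant, and the widest range was that of kune (CG1298), a claudin, with 44.5 FPKM in hom, 38.6 in CAG, 30.5 in tg2 and 39.4 in tg1.

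The G protein genes that act with moody and loco varied little, and 5 of 6 had a range under 0.5, as did 60.2% of tested loci. The exception was G-oalpha47A, a G protein alpha subunit abundant in neurons, with 22.3 FPKM in hom, 30.2 in CAG, 35.9 in tg2 and 30.9 in tg1. G-ialpha65A, the alpha subunit that loco regulates, lay between 16.8 and 18.9 FPKM, and Ggamma1, the most abundant, between 235 and 285. Of the 5 genes by which glia engulf debris 4 were tested, with 0 calls, beside 3.31% to 6.48% of all tested loci by pair. Crk, an adaptor protein, was the most abundant at 80.0 to 103 FPKM, and Shark, the kinase that acts downstream of the receptor drpr, had 7.65 FPKM in hom, 5.61 in CAG, 4.39 in tg2 and 4.38 in tg1.

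Neuron markers had the same lowest and highest lines as Eaat1, alrm, nrv2 and repo. Of 16 listed 12 were tested, none of them at 0 in a library, and hom was lowest and tg2 highest at 12 of the 12, as at 14.9% of all tested loci. Their summed level was 409.7 FPKM in hom, 583 in CAG, 839 in tg2 and 671 in tg1, of which nrv3 held the most. Their median difference was −0.42 for hom against CAG and 0.92 for tg2 against hom, with 5 of 12 called higher in tg2 than in hom, beside 3.78% of all tested loci: fne, Snap25, VGlut, Rdl and nrv3. The RNA-binding protein gene fne had the widest range, from 4.34 FPKM in hom to 11.5 in tg2. It was also called higher in tg2 than in CAG, where 4.59% of tested loci were called in either direction. The neuron list was chosen with earlier results of these data known, so its counts and medians are description only. The part of neuronal RNA in the differences of the glial genes was not tested.

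The difference of each glial gene was also set against the median difference of the neuron markers. Between tg2 and hom Eaat1 lay 0.34 above the neuron median, whereas the other 7 lay below it, from −0.23 for alrm to −1.31 for wrapper. Between tg1 and hom Eaat1 lay 0.03 above and the other 7 below. Between hom and CAG Eaat1 and Gs2 stood at −0.45 and −0.24 relative to the neuron median, and the other 6 lay above it. In the pairs without hom Eaat1 lay below the neuron median each time, by −0.11 for tg2 against CAG, −0.33 for tg1 against CAG and −0.39 for tg1 against tg2. For tg2 against CAG alrm alone lay above it, at 0.11, and for tg1 against CAG alrm and nrv2 did, at 0.35 and 0.08. For tg1 against tg2 nrv2 lay at −0.01 and the other 6 above it, from 0.07 for alrm to 0.44 for loco.

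**Figure D5:**
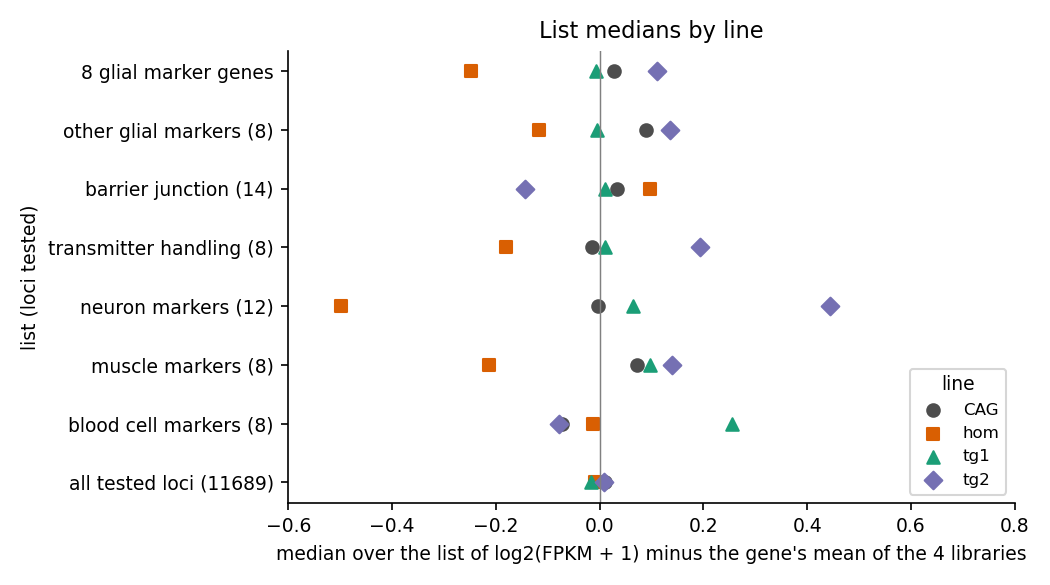
Median over each list of log2(FPKM + 1) minus the mean of the gene over the 4 libraries, 1 point per line, with the number of tested loci in brackets. The neuron markers run from −0.50 in hom to 0.44 in tg2, the 8 glial marker genes from −0.25 to 0.11, and the barrier junction genes run the other way, from 0.10 in hom to −0.14 in tg2.

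Genes with the most similar profile were sought for the 4 glial genes with a range of at least 0.5, among 9624 other protein-coding loci with no value of 0. Likeness was the root mean square distance between the mean-centred log2(FPKM + 1) values over the 4 libraries, a loose measure with so few points. Eaat1 had 10 loci within 0.1, with CG13564, CG4688 (GstE14) and CG3609 the nearest at 0.07 to 0.08. CG13564 had 10.8 FPKM in hom, 20.2 in CAG, 23.9 in tg2 and 15.6 in tg1. Gs2 had 131 loci within 0.1, the nearest being Orct2, an organic cation transporter gene, CG5326 and CG31689. The nearest to nrv2, of 478, were Aplip1, a scaffold protein of axonal transport, HisCl1, a histamine-gated chloride channel, and CG6208 (gammaSnap2). The nearest to alrm, of 161, were CG4577, klhl10 and CaMKII, a kinase abundant at synapses, which had 186 FPKM in hom, 206 in CAG, 294 in tg2 and 262 in tg1. For the flatter genes repo, moody, loco and wrapper between 761 and 2009 loci lay within 0.1.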

How the data were processed

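The authors deposited FPKM values, 1 per locus and library, headed as FPKM per the file headers. Per the submitters' processing notes, Cufflinks, TopHat, bedtools and SAMtools were used on the build dm3, with no versions given. The sources used here state neither the annotation nor the use of strand, the treatment of reads with several map positions or the depth. Paired reads of 48 nt were taken, per the labels' protocols.

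Tables were read with Python 3.11.15 and pandas 2.3.3. Of 13866 loci, 12066 carried a single name, and 11839 of these matched a symbol or a synonym belonging to a single gene of the RefSeq Release 6 table, which was used with an Ensembl annotation for names, gene types and overlaps only. Coordinates come from the dm3 loci in the files, with 1 added to the start, because on 2L 432 starts then equal those of the RefSeq table, against 21 otherwise. Differences used log2(FPKM + 1) over loci whose mean reached 1 FPKM. The arithmetic of the steps was checked on simulated data without noise, with changes larger than the call set only at loci with higher values. Recovery was thus fixed in advance and tells nothing of low values or counting error. The members and lists were chosen with earlier results of these data known, the neuron list among them, and the step of 0.5 and the counts by order of lines were added after the data had been seen. Of each list the text names the most abundant member, the member with the widest range and every called member; other members named beside them were chosen after their values were seen. For each glial gene with a range of at least 0.5 it names the 3 nearest profiles. Results were recomputed with pseudocounts of 0.1 and 5, without the filter, with a minimum mean of 5 FPKM, after median centring, after trimmed-mean scaling, and over only protein-coding loci with no value of 0.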

Additional observations from a re-analysis of the deposited data

How the results depend on the processing

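Under the 7 alternatives, Eaat1 between tg2 and hom was called each time and was the only call among the 8 genes in any pair, with a difference of 1.21 to 1.26. The median difference of the 8 genes was −0.14 to −0.10 for hom against CAG and 0.29 to 0.48 for tg2 against hom, and moved by less than 0.1 in every pair. The filter of 5 FPKM left no value for repo and wrapper, so hom was then lowest at 4 genes and tg2 highest at 3, against 5 and 4 under the other settings. The low genes depended most on the pseudocount: wrapper differed between tg2 and hom by −0.50 to −0.21 and repo by 0.23 to 0.50. Under centring, the differences of Gs2 and wrapper between tg1 and tg2 changed sign, to 0.004 and 0.04, tg2 was lowest at 3 of the 8 genes in place of 2, hom was below CAG at 7 of the 8 other glial genes in place of 8, and hom was lowest at 4 of them in place of 5. The neuron markers had hom lowest and tg2 highest at 12 of 12 under centring and under scaling, and 13 of 14 septate junction genes lay lower in tg2 than in hom under both. Centring also put hom lowest at 4 of the 8 transmitter handling genes in place of 5. It put hom lowest at 4 of the 5 germline genes in place of 3. Among the 8 muscle markers tg2 was highest at 2 in place of 4 under centring and under scaling. The share of all tested loci called for tg2 against hom was 2.92% with a pseudocount of 5 and 9.42% with 0.1, against 6.48%. No paired analysis was possible because each line has 1 library, and for the same reason no library could be left out within a line. The rough estimate of depth was lowest for hom, and no value carries a measure of counting error.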

Other observations

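Markers of other cell types shared the lowest and highest lines of the glial genes in part. Of 8 tested muscle markers hom was lowest at 6 and tg2 highest at 4, beside 29.4% and 31.6% of all tested loci. The giant sarcomere protein gene bt was listed at 0 in CAG and hom with 496 FPKM in tg1 and 504 in tg2. Such a value of 0 can be a failed estimate. Act88F, the flight muscle actin gene, was the most abundant, with 5162 FPKM in hom, 5719 in CAG, 6415 in tg2 and 6336 in tg1. Of 8 blood cell markers tg1 was highest at 6, beside 1801 of the 11689 tested loci. Nplp2, the most abundant of them, had 629 FPKM in hom, 889 in CAG, 783 in tg2 and 1466 in tg1, and NimC1, a receptor for bacteria, had 15.4, 17.6, 2.11 and 17.9 FPKM in the same order. Nplp2 was called higher in tg1 than in hom, and NimC1 lower in tg2 than in each other line. Calls in either direction were made at 3.54% of tested loci for tg1 against hom and at 3.31% to 6.48% in the pairs with tg2. Of 5 tested germline genes hom was lowest at 3 and tg2 highest at 4, beside 29.4% and 31.6% of all tested loci. Their median level was only 1.20 FPKM in hom, 2.77 in CAG, 3.40 in tg2 and 1.73 in tg1, so their differences rest on low values. Among these, osk had 0.851 FPKM in hom, 6.22 in CAG, 7.16 in tg2 and 2.21 in tg1. In tg2 compared with hom, osk, piwi and vas were called higher, by differences of 2.14, 1.53 and 1.19, beside 3.78% of all tested loci. In hom compared with CAG, osk and piwi were called lower, by −1.96 and −1.11, where 5.3% of tested loci were called in either direction. In tg1, osk was called lower than in CAG and in tg2, by −1.17 and −1.35, and vas lower than in tg2, by −1.15. Calls in either direction were made at 3.55% of tested loci for tg1 against CAG and 3.31% for tg1 against tg2.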
